A study of Rattus norvegicus with 4 samples.

Results

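The genes described here code for the AP-1 transcription factors and were chosen by name from a list of 9, namely Fos, Fosb, Fosl1, Fosl2, Jun, Junb, Jund, Atf3 and Maff. Of these, 7 had a row among the 25810 genes counted and all 7 passed the filter on low counts that left 13726 genes for the test. The expression of Fosb and Fosl2 was not analysed here. The RNA came from a pair of clones of PC12, a line isolated from a rat pheochromocytoma, which is a tumour of adrenal chromaffin cells. The wtPC12 clone, labelled wild type, has low levels of the repressor REST, and the hrPC12 clone has high levels. Each clone was sequenced in 2 libraries, and neither a treatment nor an age is given in the labels. The hrPC12 clone arose spontaneously, so that the level of REST and any other property of a single clone cannot be told apart. Nothing says whether the 2 libraries of a clone came from separate cultures, so the p values measure the spread between libraries, which may be technical.

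AP-1 is a dimer. Proteins of the Fos family pair through a leucine zipper with proteins of the Jun family. Jun proteins can also pair among themselves or with proteins of the ATF family. Pairs of Fos and Jun proteins bind the DNA element TGA(C/G)TCA, searched below as the wider pattern TGANTCA. Many of these genes are immediate early genes, transcribed within minutes when growth factors, depolarization or stress activate the MAP kinases. In PC12 cells the induction of Fos by nerve growth factor is a textbook case. Fos carries a strong activation domain that Fosl1 (Fra-1) lacks. Maff is a small Maf protein without an activation domain that pairs with factors related to Nfe2, and is a relative of AP-1 in the wider bZIP class.

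The reads counted on genes numbered from 20975027 to 27246502 per library. Values are given as normalized counts, i.e., reads scaled to a common library size with edgeR's TMM factors, and 3 reads correspond to 2.54 to 3.49 normalized counts. Rest was at 43.0 and 132 normalized counts in wtPC12 cells and at 964 and 915 in hrPC12 cells, with a log2 FC (hrPC12/wtPC12) of 3.42 ± 0.57 (SE) and an adj. p value of 0.0115, so that the libraries of the 2 clones stood as labelled. The wtPC12 libraries differed from each other in Rest more than the hrPC12 ones did, and leaving out wtPC12 replicate 1 or 2 gave a log2 FC of Rest of 2.80 or 4.44, respectively. It was past both thresholds given below in 8 of 12 alternative settings. Of 10 chromaffin cell markers, 8 were tested and 5 of them were lower in hrPC12 cells past both thresholds given below, with a summed level of 955351 and 816734 normalized counts in wtPC12 and of 47390 and 51442 in hrPC12 cells. Chgb was most of the wtPC12 sum (687936 and 626776 normalized counts) and Ddc most of the hrPC12 sum (26281 and 27994.5). Ddc, Gata3 and Hand2 did not pass the test. Of 6 fibroblast markers, 5 were higher, Vim and Col3a1 among them, and Thy1 was lower with an adj. p value of 0.0137. They summed to 16293 to 18063 in wtPC12 and to 95232 to 99984 in hrPC12 cells. Nearly all of the wtPC12 sum was Thy1 (17929 and 16186), and most of the hrPC12 sum was Col3a1 (83801 and 88143). Skeletal muscle markers (3 of 4 tested higher, Myod1, Myog and Acta1, and Des with a log2 FC of −1.99 and an adj. p value of 0.0527) summed to 84.5 to 134 and to 3937 to 4331. The 7 white blood cell markers summed to 45.4 and 36.1 in wtPC12 and to 104 and 112 in hrPC12 cells. Of the 3 tested, Cd68 (log2 FC 1.63, adj. p value 0.0283) and Spi1 (2.36, adj. p value 0.0338) were higher in hrPC12 cells, with Ptprc at 0 reads in 3 libraries and at 1 read in hrPC12 replicate 1. The part of these markers in the changes of the AP-1 genes was not tested. In bulk RNA, fewer cells of a type and less RNA per cell cannot be told apart.

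The AP-1 genes did not move together between the clones. Genes are called DE when past both thresholds, an adj. p value below 0.01 and a log2 FC above 2 or below −2, and are said to have risen or fallen when the adj. p value is below 0.05 at any size. Fosl1 was the single DE gene among the 7, and it was upregulated. In all, 4.84% of the genes tested were DE and higher in hrPC12 cells and 5.46% were DE and lower. With the adj. p value alone, Fosl1, Atf3 and Jun rose and Fos, Maff and Jund fell, that is 3 and 3 of 7, where 16.1% of all genes tested rose and 16.3% fell. Junb did not pass the test. The libraries of the clones did not overlap for 6 of the 7, the exception being Junb, against 73.5% of all genes tested. The median log2 FC was −0.62 over the 7 genes and 0.06 over all genes tested. With 2 libraries per clone, a permutation test of a single gene cannot go below p = 0.33, and the adj. p values rest on the spread that edgeR shares among genes. No member changed direction in any of 12 alternative settings of the processing.

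**Figure D1:**
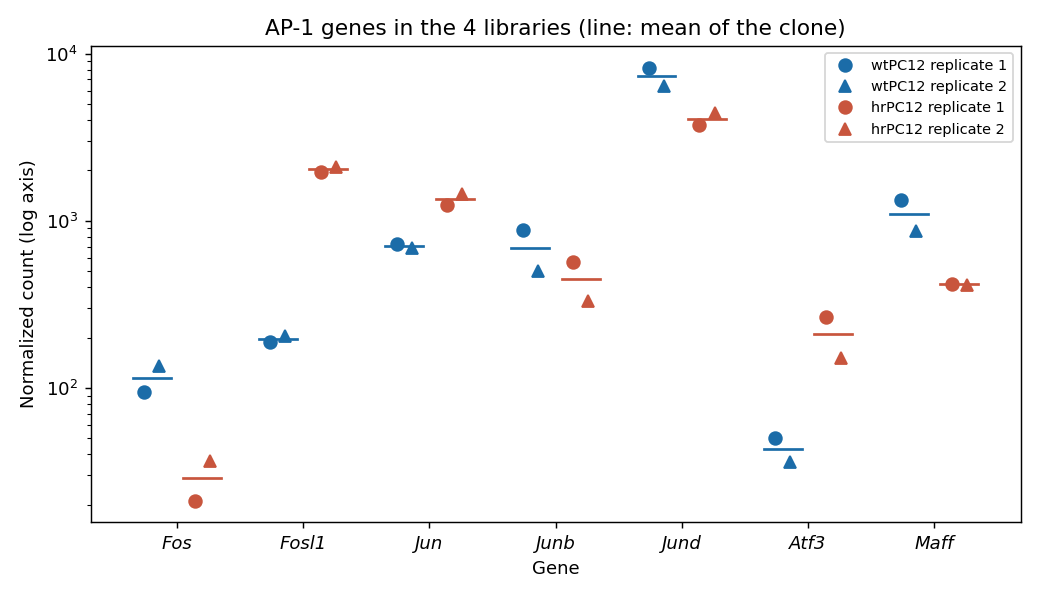
Normalized counts (log axis) of the 7 AP-1 genes, with a point for each library (circle, replicate 1; triangle, replicate 2) and a line at the mean of each clone. Fosl1 lies near 195 in wtPC12 and near 2034 in hrPC12 cells, whereas Fos lies near 115 and near 28.8, and only the points of Junb overlap between the clones.

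Fos family genes moved in opposite directions. Fosl1, which codes for Fra-1, a Fos protein that accumulates when ERK stays active, was at 187 and 203 normalized counts in the wtPC12 libraries and at 1958 and 2110 in the hrPC12 libraries. Both hrPC12 libraries lay far above both wtPC12 libraries, and within each clone the values were close. The mean was 195 ± 11.1 in wtPC12 and 2034 ± 107 in hrPC12 cells (SD, n = 2 each). The log2 FC was 3.38 ± 0.21 (SE), i.e., 10.4-fold, with an adj. p value of 0.000763. Fos itself, the prototype of the family, was at 94.2 and 135 normalized counts in wtPC12 and at 21.2 and 36.4 in hrPC12 cells. These values rest on few reads, namely 81 and 131 in wtPC12 and 25 and 36 in hrPC12 cells, and the clones did not overlap. Fos fell 3.99-fold, with a log2 FC of −1.996 ± 0.45 (SE), just short of the size threshold, a 95% interval from −3.14 to −0.85 and an adj. p value of 0.0271. The adj. p value of Fos rose to 0.0926 without wtPC12 replicate 2 and to 0.0684 without hrPC12 replicate 1.

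Of the reads on Fos and Fosl1, the share on Fosl1 was higher in hrPC12 cells. In wtPC12 replicate 1, 66.5% of the 242 reads on Fos and Fosl1 were on Fosl1 (exact 95% binomial interval 60.2% to 72.4%), and in wtPC12 replicate 2 it was 60.1% of 328 (54.5% to 65.4%). In hrPC12 replicate 1 it was 98.9% of 2338 (98.4% to 99.3%) and in hrPC12 replicate 2 it was 98.3% of 2121 (97.7% to 98.8%). The intervals cover counting error only, since reads carry no molecular identifiers, and they do not correct for the lengths of the transcripts. Within a clone the intervals overlap, and between the clones they are far apart. The mean share was 63.3% ± 4.57 in wtPC12 and 98.6% ± 0.444 in hrPC12 cells (SD, n = 2 each). The summed level of the pair was 310 ± 39.9 normalized counts (SD, n = 2) in wtPC12 and 2063 ± 118 in hrPC12 cells. The sum therefore followed Fosl1, the fall of Fos being small on that scale.

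**Figure D2:**
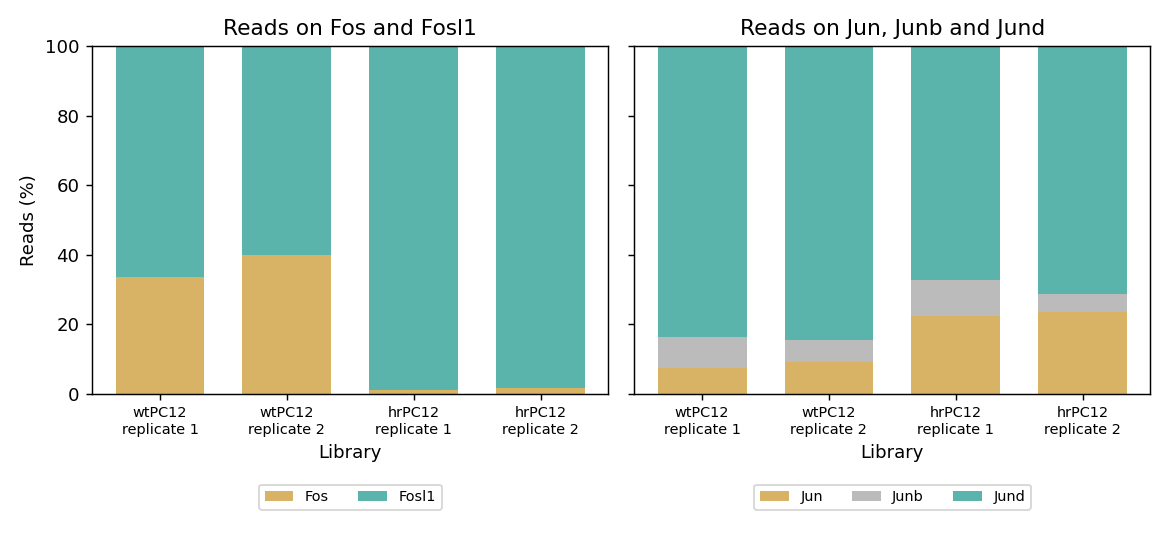
Share of reads (%) on each gene, per library, for Fos and Fosl1 (left) and for Jun, Junb and Jund (right), with bars that add up to all reads on the genes of the panel. Fosl1 takes 60.1% and 66.5% in wtPC12 and over 98% in hrPC12 cells, and Jun takes 7.40% and 9.02% in wtPC12 and 22.5% and 23.4% in hrPC12 cells.

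The promoter of Fosl1, the gene that changed most among the 7, is shown here from RefSeq on the rat assembly GRCr8, from 250 bases before to 50 bases after the start of the gene. This assembly is later than the build on which the reads were counted. The promoters of 6 of the 9 genes matched this table by symbol, and those of Fos, Jun and Atf3 did not. Each was searched on both strands for the AP-1 element TGANTCA, the cAMP response element TGACGTCA, its core TGACG (which also lies inside that element), the serum response CArG box and the sequence TATAAA. The wider pattern TGANTCA was in none of the 6, and in 7.33% of the 33469 rat promoters of the same length. Capitals mark matches of the core TGACG, read here on the other strand as CGTCA, at −148 and −84 from the start. A match is only a description of the letters. The Fosl1 promoter lies at chr1:212183635-212183934 on the plus strand.
Fosl1: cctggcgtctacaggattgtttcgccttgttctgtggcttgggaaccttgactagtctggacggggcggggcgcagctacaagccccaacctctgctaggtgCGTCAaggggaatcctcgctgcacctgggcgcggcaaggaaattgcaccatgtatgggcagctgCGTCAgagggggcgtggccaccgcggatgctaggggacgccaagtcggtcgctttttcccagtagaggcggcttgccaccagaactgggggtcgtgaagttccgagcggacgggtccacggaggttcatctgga

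Jun family genes also differed in direction. Jund, which is transcribed at a high basal level in many cells, was at 8244 and 6390 normalized counts in wtPC12 and at 3725 and 4387 in hrPC12 cells. It was the most abundant of the 7 genes in each library, and the clones did not overlap. Jund fell 1.80-fold, with a log2 FC of −0.85 ± 0.21 (SE) and an adj. p value of 0.0335. Jun, the partner of Fos in the classical dimer, was at 729 and 683 in wtPC12 and at 1245 and 1444 in hrPC12 cells. Again the clones did not overlap, here with the hrPC12 libraries on top. Jun rose 1.90-fold, with a log2 FC of 0.93 ± 0.20 (SE) and an adj. p value of 0.0257. Both changes were below the size threshold, and when a library was left out the adj. p values reached 0.172 for Jun (without hrPC12 replicate 2) and 0.222 for Jund (without hrPC12 replicate 1). Jun was above 0.05 without any of the 4 libraries, from 0.0518 upwards, and Jund was at 0.0801 without wtPC12 replicate 1 and at 0.0691 without hrPC12 replicate 2.

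Junb, a weaker activator than Jun that is induced early by many stimuli, differed 1.77-fold between the wtPC12 libraries and 1.71-fold between the hrPC12 libraries. It was at 883 and 499 normalized counts in wtPC12 and at 567 and 331 in hrPC12 cells, so that hrPC12 replicate 1 lay between the wtPC12 libraries. The log2 FC was −0.62 ± 0.41 (SE), with a 95% interval from −1.67 to 0.43 and an adj. p value of 0.288. A change of Junb was thus not detectable, and the interval leaves room for a fall of a size similar to that of Maff. Neighbours were sought on the same chromosome among tested genes placed by symbol, with a mean of at least 50 normalized counts unless they were members. For the 6 nearest to Junb (3 on each side), the median log2 ratio of hrPC12 replicate 1 to replicate 2 was 0.80. That of Junb itself was close, at 0.78. A median above that of these neighbours was found around 8.14% of 7994 placed genes. For the wtPC12 libraries the median of the neighbours was 0.44 and the ratio of Junb 0.82. In an alternative chosen after the data had been seen, only hrPC12 replicate 1 was scaled by its neighbours. The log2 FC of Junb was then −1.07, with an adj. p value of 0.0669. The wtPC12 libraries were left unscaled, so for Junb this step could only lower the log2 FC.

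Among the reads on the 3 Jun genes, Jund took 83.6% and 84.4% in wtPC12 and 67.3% and 71.2% in hrPC12 cells. Jun took 7.40% and 9.02%, and then 22.5% and 23.4%. Junb took 8.96% and 6.59%, and 10.2% and 5.37%, with no order between the clones. These genes have no introns, so their levels could be set per kilobase of gene, a step not planned beforehand. The lengths were those of RefSeq on GRCr8, a later assembly than the build on which the reads were counted. Per kilobase, the mean level of Jund was 4358 ± 781 (SD, n = 2) normalized counts in wtPC12 and 2416 ± 279 in hrPC12 cells. Jun was at 228 ± 10.6 per kilobase in wtPC12 and at 435 ± 45.4 in hrPC12 cells, and Junb at 387 ± 152 and 252 ± 93.6. Jund was first on this scale in each of the 4 libraries. Junb was above Jun in both wtPC12 libraries (495 and 279 against 236 and 221 per kilobase). In wtPC12 replicate 2 that order rests on the lengths, since by normalized counts Junb was below Jun there (499 against 683). Jun was above Junb in both hrPC12 libraries (402 and 467 against 318 and 185 per kilobase). Per length, Jund took 87.7% ± 0.944 (SD, n = 2) of the family in wtPC12 and 77.8% ± 3.21 in hrPC12 cells. The summed level of the family in normalized counts was 8714 ± 1616 (SD, n = 2) in wtPC12 and 5850 ± 442 in hrPC12 cells.

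The promoters of Jund, which fell, and of Junb, which did not pass the test, are given for comparison, again from RefSeq GRCr8. Jund holds a full cAMP response element from −221 to −214, an element found in 1.83% of all promoters, and a further core at −98. Junb holds a core at −155 and TATAAA at −49, which 14.2% of all promoters hold. Capitals mark the element and the core. Jund lies at chr16:18769722-18770021 on the minus strand, and Junb at chr19:40080876-40081175 on the plus strand.
Jund: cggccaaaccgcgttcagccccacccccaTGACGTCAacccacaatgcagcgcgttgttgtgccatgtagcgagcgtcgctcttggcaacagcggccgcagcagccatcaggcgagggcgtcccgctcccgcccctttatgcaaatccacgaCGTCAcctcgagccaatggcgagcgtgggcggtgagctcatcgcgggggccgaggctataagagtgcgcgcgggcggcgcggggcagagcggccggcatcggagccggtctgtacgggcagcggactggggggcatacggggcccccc
Junb: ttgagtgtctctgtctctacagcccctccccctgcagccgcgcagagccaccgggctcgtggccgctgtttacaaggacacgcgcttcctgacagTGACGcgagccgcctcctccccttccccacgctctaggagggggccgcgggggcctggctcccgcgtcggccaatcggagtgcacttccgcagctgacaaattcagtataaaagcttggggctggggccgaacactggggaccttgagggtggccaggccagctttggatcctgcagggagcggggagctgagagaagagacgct

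Atf3 and Maff, the members outside the Fos and Jun families, went opposite ways as well. Atf3, a stress-induced factor of the ATF family that can act as a repressor, was at 50.02 and 36.1 normalized counts in wtPC12 and at 266 and 152 in hrPC12 cells. The clones did not overlap, although the hrPC12 libraries differed 1.75-fold from each other. Atf3 rose 4.85-fold, with a log2 FC of 2.28 ± 0.43 (SE) and an adj. p value of 0.0173, and thus passed the size threshold but not the adj. p value of 0.01. Around Atf3, the median log2 ratio of hrPC12 replicate 1 to replicate 2 over the 6 neighbours was 0.35, against 0.80 for Atf3 itself. The adj. p value of Atf3 was 0.0822 without wtPC12 replicate 2, and the gene was DE under 5 of the 12 alternative settings. Maff was at 1321 and 871 in wtPC12 and at 420 and 414 in hrPC12 cells. The hrPC12 libraries were nearly equal and lay below both wtPC12 libraries. Maff fell 2.63-fold, with a log2 FC of −1.39 ± 0.28 (SE) and an adj. p value of 0.0198, and its adj. p value was at most 0.0432 in the 12 settings.

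The promoter of Maff holds a full cAMP response element from −51 to −44, in capitals. It lies at chr7:112792537-112792836 on the plus strand of RefSeq GRCr8. Of the 6 promoters, 2 thus hold this element (Jund and Maff), against 1.83% of all promoters. Its core is in 4 of the 6 (Fosl1, Junb, Jund and Maff) and in 21.2% of all promoters. Jund and Maff fell and Fosl1 rose. A link of these letters with direction was not tested. Promoters of Fos, Jun and Atf3 were missing, and Fosb and Fosl2 had no expression values. The CArG box, found in 1.64% of all promoters, was in none of the 6.
Maff: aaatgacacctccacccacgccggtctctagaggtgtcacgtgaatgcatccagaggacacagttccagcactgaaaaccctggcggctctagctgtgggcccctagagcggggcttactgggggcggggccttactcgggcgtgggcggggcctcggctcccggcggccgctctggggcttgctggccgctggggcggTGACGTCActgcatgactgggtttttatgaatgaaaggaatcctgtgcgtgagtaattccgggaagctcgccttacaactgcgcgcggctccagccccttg

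**Figure D3:**
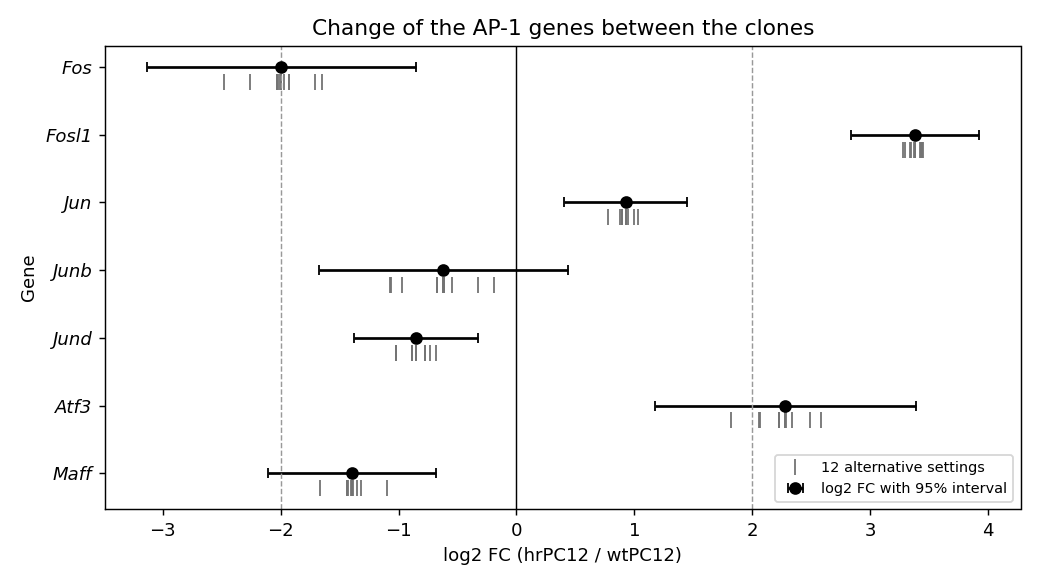
Fitted log2 FC (hrPC12/wtPC12) of the 7 genes (points) with 95% intervals (bars), the values under 12 alternative settings (ticks) and dashed lines at −2 and 2. Fosl1 is the single gene whose interval lies beyond a dashed line, and the interval of Junb spans 0.

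The order of levels within a clone also changed. In wtPC12 cells the normalized counts fell in the order Jund, Maff, Jun, Junb, Fosl1, Fos and Atf3. Junb could not be ranked there against Jun, since it was above Jun in replicate 1 (883 against 729) and below it in replicate 2 (499 against 683). Maff was above Junb in each wtPC12 library, although their ranges overlapped (871 to 1321 against 499 to 883). In hrPC12 cells the order was Jund, Fosl1, Jun, Junb, Maff, Atf3 and Fos, and the ranges of Junb and Maff overlapped. The order is by counts, not per length.

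The genes with profiles most like those of the leading members were sought among 11633 tested genes with a mean of at least 50 normalized counts, by the distance of their centred log2 levels over the 4 libraries. A distance over 4 libraries is a description. For Fosl1 they were Amotl2 (distance 0.0401; 697 and 773 normalized counts in wtPC12, 7533 and 8059 in hrPC12 cells), Serpine2 (0.156) and Hsf2bp (0.167). For Jund they were Bop1 (0.0262), RT1-A1 (0.0303) and D3ZD16_RAT (0.0358). For Atf3 they were Lgals9 (0.0631), Rer1 (0.0930) and Pkp2 (0.0998), which shared its higher value in hrPC12 replicate 1. For Maff they were RGD1565675 (0.0737), Fam100a (0.0801) and Sat2 (0.0897).

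Among 36 partners and other bZIP genes, 31 had a row and 25 were tested, with a median log2 FC of 0.22. Of the 25, 4 rose and 3 fell, against 16.1% and 16.3% of all genes tested. Atf4 and Atf5, stress factors and the most abundant of this list, had log2 FC values of −0.78 ± 0.23 and 0.57 ± 0.18 (SE) with adj. p values of 0.0533 and 0.0636. The genes that follow were named after their values had been seen. Mafk, a small Maf protein like Maff, was at 959 and 986 in wtPC12 and at 3037 and 3250 in hrPC12 cells, and rose with a log2 FC of 1.69 ± 0.17 (SE) and an adj. p value of 0.00261. Maff and Mafk, which share partners, therefore changed in opposite directions. Of those partners, Nfe2l2 (Nrf2), the activator of antioxidant genes, rose with a log2 FC of 0.70 ± 0.17 (SE) and an adj. p value of 0.0355. Batf3, a Jun partner of immune cells, rose with a log2 FC of 2.33 ± 0.51 (SE) and an adj. p value of 0.0253. Mafa fell with a log2 FC of −2.50 and an adj. p value of 0.0167.

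Among 31 genes of the MAP kinase cascade and the SRF factors that lie upstream of AP-1, 25 were tested. Of these, 3 rose and 2 fell, against 16.1% and 16.3% of all genes tested, and the median log2 FC was −0.24. The most abundant 2 were the ones that fell. Mapk14, the p38α kinase of stress signalling, was at 7809 and 8120 normalized counts in wtPC12 and at 3778 and 4021 in hrPC12 cells, a log2 FC of −1.03 ± 0.16 (SE) with an adj. p value of 0.00953. Mapk3, which codes for ERK1, was at 7949 and 6905 and at 3092 and 3598, a log2 FC of −1.15 ± 0.18 (SE) with an adj. p value of 0.0101. Among the genes that rose were Rps6ka3 (log2 FC 1.52) and Elk3 (1.04). Rps6ka2, also named after its values had been seen, had no read in wtPC12 and 57 and 35 reads in hrPC12 cells. It was not tested for lack of reads in a clone, and was at least 12.7-fold higher in hrPC12 cells, counted against 3 reads in each wtPC12 library.

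Among 17 inhibitors of the MAP kinases, 14 were tested, with a median log2 FC of 0.76. Of the 14, 3 rose and 2 fell, against 16.1% and 16.3% of all genes tested. The 3 that rose were all DE, where 4.84% of all genes tested were DE and higher and 5.46% were DE and lower. Dusp10, a phosphatase of p38 and JNK, was at 18.6 and 15.5 normalized counts in wtPC12 and at 439 and 285 in hrPC12 cells, with a log2 FC of 4.40 ± 0.41 (SE) and an adj. p value of 0.00200. Dusp1, the early phosphatase of the same kinases, was at 1067 and 661 and at 4429 and 4973, with a log2 FC of 2.44 ± 0.28 (SE) and an adj. p value of 0.00399. Errfi1, an inhibitor of the EGF receptor, was at 336 and 391 and at 1925 and 1977, with a log2 FC of 2.42 ± 0.21 (SE). Dusp2, a nuclear phosphatase, was DE in the other direction, from 469 and 396 to 8.47 and 14.2, with a log2 FC of −5.25 ± 0.41 (SE).

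Among 32 other immediate early genes, 25 were tested, with a median log2 FC of 0.33. Of the 25, 7 rose and 3 fell, against 16.1% and 16.3% of all genes tested. Over all genes tested, 4.84% were DE and higher and 5.46% were DE and lower. The 5 upregulated DE genes were Cyr61, Klf6, Trib1, Klf2 and Plk2. Cyr61, a secreted matricellular protein, had 2 and 1 reads in wtPC12 and 254 and 137 reads in hrPC12 cells, a ratio of 110 with a 95% counting interval from 37.4 to 536. Klf6 and Klf2, zinc finger factors, had log2 FC values of 3.10 ± 0.32 and 3.01 ± 0.36 (SE). Trib1 and Plk2 had 3.04 ± 0.23 and 2.58 ± 0.36 (SE). The 2 downregulated DE genes were Arc, an effector of neuronal activity, at 2324 and 2022 in wtPC12 and at 84.7 and 137 in hrPC12 cells (log2 FC −4.30 ± 0.33, SE), and Egr4 (log2 FC −3.30 ± 0.43, SE). Without wtPC12 replicate 1, 3 genes of this list were DE and higher and 1 was DE and lower.

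Among 40 genes known in general as AP-1 targets, 28 were tested, with a median log2 FC of 0.52. Of the 28, 10 rose and 8 fell, against 16.1% and 16.3% of all genes tested. Over all genes tested, 4.84% were DE and higher and 5.46% were DE and lower. The 6 upregulated DE genes were Cd44, Edn1, Axl, F3, Gja1 and Procr. Cd44, a hyaluronan receptor, had 3 and 2 reads in wtPC12 and 378 and 315 reads in hrPC12 cells, a ratio of 117 with a 95% counting interval from 49.9 to 361. The ratio was 109 (29.9 to 907) for Edn1, which codes for endothelin 1, and 92.8 (31.5 to 452) for Axl, a receptor tyrosine kinase. F3, the coagulation initiator tissue factor, was at 37.2 and 41.2 normalized counts in wtPC12 and at 502 and 536 in hrPC12 cells, with a log2 FC of 3.72 ± 0.29 (SE). Gja1 (connexin 43) and Procr (the protein C receptor) had log2 FC values of 3.69 ± 0.55 and 3.22 ± 0.36 (SE).

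The 4 downregulated DE genes of that list were Mmp13, Penk, Hmox1 and Th. Mmp13, a collagenase whose promoter holds a well-studied AP-1 site, was at 3923 and 3506 normalized counts in wtPC12 and at 2.54 and 5.06 in hrPC12 cells, with a log2 FC of −9.92 ± 0.35 (SE) and an adj. p value of 0.000261. Penk, the enkephalin precursor, was at 1940 and 955 and at 1.69 and 6.07, with a log2 FC of −8.55 ± 0.70 (SE). Hmox1, the haem-degrading enzyme, and Th, the rate-limiting enzyme of catecholamine synthesis, had log2 FC values of −3.41 ± 0.28 and −3.08 ± 0.32 (SE). Th is also among the chromaffin cell markers above. The genes called AP-1 targets therefore went in both directions, and which of them AP-1 binds in these cells was not measured. Without wtPC12 replicate 2 no gene of any list, and none of all genes tested, was DE.

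**Figure D4:**
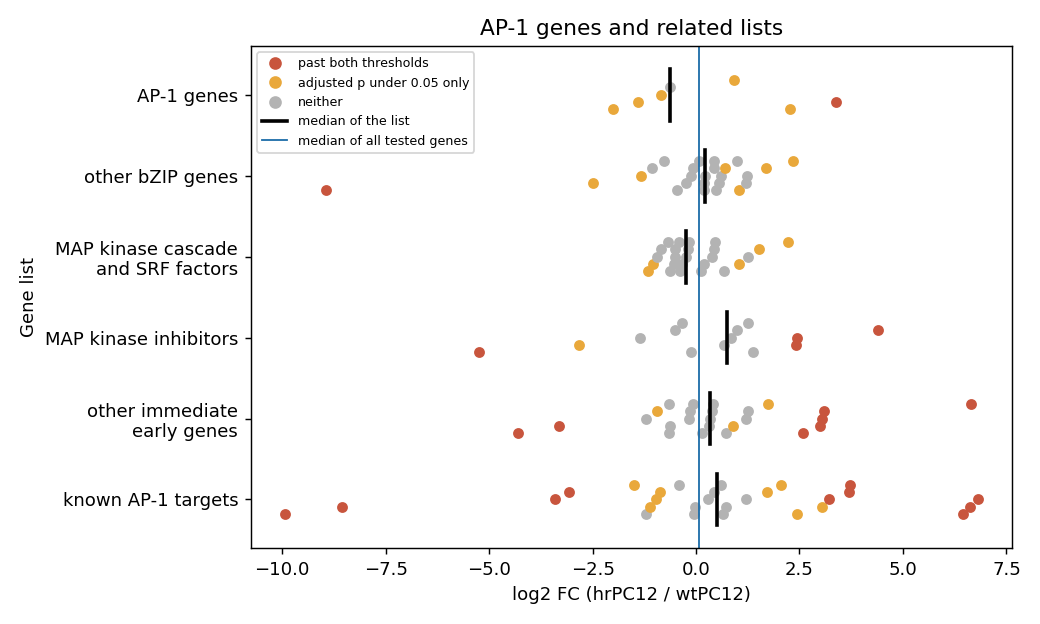
Fitted log2 FC (hrPC12/wtPC12) of each tested gene of the AP-1 genes and of the 5 related lists, coloured by the test, with a black line at the median of each list and a blue line at the median of all genes tested (0.06). Each list holds genes on both sides of 0, and the medians run from −0.62 (AP-1 genes) to 0.76 (MAP kinase inhibitors).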

How the data were processed

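Paired-end RNA-Seq gave 2 libraries of wtPC12 and 2 of hrPC12 cells. Alignment by the authors was to the rat build rn4, and the submitters' processing notes name TopHat2 2.0.4, HTSeq 0.5.3 and DESeq 1.9.12. They deposited raw counts of reads per gene and library, without normalization. Whether the counting used strand is not given in the sources used here. The deposited DESeq table holds mean counts, fold changes and p-values of the authors' comparison and was not used.

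Counts were read for 25810 genes. Reads outside genes, in more than 1 gene or without a unique position were kept out of library sizes, reads on genes being 37.9% to 41.3% of those accounted for. Genes that averaged 5 or more normalized counts and had reads in wtPC12 as well as hrPC12 cells were tested with edgeR 4.0.16 (quasi-likelihood, legacy option on, TMM factors, prior count 0.125) in R 4.3.3, with Benjamini-Hochberg adjustment over all 13726 genes tested. edgeR took the place of the authors' DESeq, whose filter and thresholds were kept. The SE is the log2 FC divided by the root of the F statistic. DESeq2 1.42.0 was an alternative, as were other scalings and filters, glmTreat and each library left out. In a simulation with 13621 genes, 200 of them given a log2 FC of 3, edgeR found 199 with 1 false call. Genes were placed along GRCr8 by symbol for 65.2% of those tested, only to find neighbours.

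The AP-1 genes and the gene lists, which come from general knowledge, were chosen with earlier results of these data known. Genes named are Rest, the 9 AP-1 genes, in each list the DE genes (at most 6 per direction) or, where fewer than 2 were DE, the 2 most abundant, and the 3 genes with profiles nearest to Fosl1, Jund, Atf3 and Maff. Others are named as chosen later. A few genes within these lists are not reported here.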

Additional observations from a re-analysis of the deposited data

How the results depend on the processing

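DE genes among the AP-1 genes numbered 1 (Fosl1) and became 2 with RLE factors, with library totals alone and with every gene that had at least 1 read (Atf3 added), and 3 with DESeq2 (Atf3 and Fos added). Leaving out each library gave 0 to 2 DE genes (0 without wtPC12 replicate 2, when no gene at all was DE, and 2 without hrPC12 replicate 2) and 3 to 4 genes with an adj. p value below 0.05, in place of 6, which was the count in the other settings. It was 3 without wtPC12 replicate 2 (Fosl1, Jund and Maff) and without hrPC12 replicate 1 (Atf3, Fosl1 and Maff). The cause was not tested, but each such fit has 3 libraries, and the lone library of a clone is assumed to vary like the others. Fosl1 and Maff passed 0.05 in all 12 alternatives, with log2 FC values of 3.28 to 3.45 and −1.66 to −1.09, and no member changed direction. Atf3 ranged from 1.82 to 2.58, and Fos from −2.48 to −1.65. Library totals alone moved the median log2 FC of all genes to 0.13, and every gene with a read to 0.16, where upregulated DE genes numbered 1127 in place of 665. Division by transcript length was not run for Fos and Fosl1, as the lengths at hand span introns. No paired analysis was possible because the labels give the clones fewer than 2 replicate marks in common, and the replicate numbers used here only name the libraries. Depth limits Fos, at 25 and 36 reads in hrPC12 cells, and Atf3, at 43 and 35 reads in wtPC12 cells.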
